A study of Mus musculus with 6 samples.

Results

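The genes described here are 32 genes of cholesterol synthesis and of its control by SREBP, chosen by their known function and grouped by pathway step. Earlier results of these data were known when the list was chosen, so counts and medians over it are descriptions. They cover the SREBP regulators, the mevalonate and sterol enzymes, sterol transfer and uptake, entry into fatty acid synthesis, and LXR with sterol export. All 32 were among the 24190 genes of the count table, and all 32 were among the 14692 genes that passed the filter on low counts. RNA was sequenced from MTO54, which is a line of mouse tumor organoids (MTOs) with engineered driver alterations that both groups share. Control MTOs (3 samples) were kept in complete stem cell medium, and Folfiri MTOs (3 samples) received SN38 at 100 nM together with 5FU, given in the labels as 50 μg/μl. Treatment started 2 days after seeding and lasted 2 days by the labels and the methods, while a figure legend of the study gives a longer time. 5FU blocks thymidylate synthesis, and SN38, the active form of irinotecan, inhibits topoisomerase I. MTO54 is 1 line, established from a tumor of a genetically engineered mouse. The labels do not say whether the 3 samples of a group came from separate cultures. A figure legend of the study calls them biological replicates, without saying what was separate. The p values measure the spread between these samples of 1 line, which may be technical.

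Cells make cholesterol from acetyl-CoA through mevalonate, the isoprenoids, squalene and lanosterol. When sterols in the endoplasmic reticulum are low, SCAP carries the SREBP precursors to the Golgi, where the proteases encoded by Mbtps1 and Mbtps2 release the transcription factor, and INSIG proteins hold SCAP back when sterols are plentiful. SREBP-2, from Srebf2, acts mainly on sterol genes and SREBP-1, from Srebf1, mainly on fatty acid genes, and Insig1 is itself an SREBP target. LXR, a receptor for oxysterols, turns on sterol export through Abca1 and Abcg1 and the ubiquitin ligase Mylip (IDOL), which degrades lipoprotein receptors. SREBPs bind sterol regulatory elements in promoters, often beside sites for NF-Y, whose core is CCAAT, and for Sp1, whose core is GGGCGG.

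Promoter sequences from RefSeq (GRCm38.p6), reaching from 250 bases before to 50 bases after the start site, were found for 27 of the 32 genes, and not for Fdps, Fdft1, Sqle, Stard4 and Abcg1. The SRE-like motif TCACNCCAC, searched on both strands like all motifs here, was present in 1 of them, Hmgcs1, and in 1.44% of all 27025 genes in the table, a gene counting where any of its promoters matched. Its shorter form CACNCCAC, which lies within the longer motif and was searched after that result was seen, was present in 3 (Acat2, Hmgcs1 and Insig1) and in 7.12% of all genes. CCAAT was found in 22 of the 27 genes and in 41.1% of all genes, and GGGCGG in 22 of the 27 and in 38.2% of all genes. Some genes have several promoters, and counted by promoter CCAAT was in 23 and GGGCGG in 26 of 35, against 37.4% and 35.7% of all 32851. A match of letters is not a binding site. Of the promoters, 3 are shown, for the gene with the SRE-like match (Hmgcs1), the gene with the largest fall (Lss) and the gene with the largest rise (Mylip), with matches to CACNCCAC and CCAAT in capitals, the latter read as ATTGG on the strand shown. Each is on the + strand and runs up to the last base before the annotated transcripts, at chr13:119690101-119690350 for Hmgcs1, chr10:76531355-76531587 for Lss and chr13:45389492-45389741 for Mylip.
Hmgcs1: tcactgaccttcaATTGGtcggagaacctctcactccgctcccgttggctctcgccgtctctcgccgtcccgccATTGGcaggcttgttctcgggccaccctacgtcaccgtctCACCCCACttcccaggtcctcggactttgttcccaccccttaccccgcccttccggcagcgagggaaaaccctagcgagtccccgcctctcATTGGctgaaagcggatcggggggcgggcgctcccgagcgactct
Lss: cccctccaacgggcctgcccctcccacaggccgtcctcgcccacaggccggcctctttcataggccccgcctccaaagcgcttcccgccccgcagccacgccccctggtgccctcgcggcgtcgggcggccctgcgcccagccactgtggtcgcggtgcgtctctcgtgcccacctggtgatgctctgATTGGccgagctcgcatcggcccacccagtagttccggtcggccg
Mylip: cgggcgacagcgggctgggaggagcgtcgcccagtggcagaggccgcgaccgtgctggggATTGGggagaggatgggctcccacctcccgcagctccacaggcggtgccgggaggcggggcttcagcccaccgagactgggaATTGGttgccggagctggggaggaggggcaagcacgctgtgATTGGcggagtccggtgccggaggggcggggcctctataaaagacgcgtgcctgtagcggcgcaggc
In the Hmgcs1 promoter the CACNCCAC match, the part of the SRE-like motif in capitals, lay from 136 to 129 bases before the RefSeq start site, which follows the last base shown, between CCAAT matches that began 176 and 45 bases before it. The Lss sequence shown had 1 CCAAT match and the Mylip sequence shown had 3, so CCAAT letters occurred in promoters of genes that fell and of a gene that rose.

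Total counts ranged from 22103591 to 30098210 per sample. Mitochondrial transcripts took from 2.09% to 2.36% of counts in controls and from 3.95% to 4.44% after Folfiri. Control replicate 1 stood apart from the other controls, with a chi-square per degree of freedom of 23.7 and 22.4 against them, where control replicates 2 and 3 differed by 3.84. Folfiri replicate 3 stood apart as well, at 12.3 and 11.9 against the other treated samples, which differed by 3.55, and without it 31 of the 32 genes were called, as many as with it. The epithelial markers (Epcam, Cdh1, Krt8, Krt18, Krt19 and Cdx2) summed to between 5551 and 6461 CPM (counts relative to the TMM-normalized library size) in controls and between 4489 and 4663 CPM after Folfiri, with 4 of 6 lower and 1 higher in edgeR's test. Of 8 immune markers 7 were in the table and summed to at most 1.58 CPM in any sample, and 6 of 7 fibroblast markers summed to at most 2.45 CPM, with Cd3e and Lum not listed. Of these markers, named after their values were seen, Ptprc, Dcn and Pdgfra were higher after Folfiri, at no more than 1.34 CPM in any sample, and Col1a1 was lower, and the part of these cells in the results was not tested. Of the 3 endothelial markers Pecam1 was at no more than 0.64 CPM and Kdr at 0 in every control, whereas Cdh5 stood between 64.9 and 124 CPM.

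After Folfiri, transcripts of cholesterol synthesis fell together. Of the 32 genes, 28 were lower, 3 were higher (Mylip, Abca1 and Abcg1) and 1 (Ggps1) did not pass an adjusted p of 0.05 in edgeR's quasi-likelihood test. Most of the transcriptome changed, so the count has a high background, and 79.1% of all genes tested passed, 38.8% as lower and 40.3% as higher. A log2 fall of at least 1 was seen in 21 of the 32 genes and in 16.8% of all genes tested, and a rise of at least 1 in 1 gene (Mylip) and in 19.5% of all. As a median, the log2 fold change was -1.52 over the list and 0.02 over all genes tested. The groups did not overlap for 31 of the 32 genes, nor for 81.4% of all genes tested. With scaling by total counts only, 63.3% of all calls were higher in place of 51%, the median of all genes was 0.3 and that of the list -1.23, so the distance between the list and all genes was -1.53 in place of -1.54.
Together the 32 genes took from 0.812% to 0.971% of all counts in controls and from 0.267% to 0.282% after Folfiri. Their summed level was 8408, 10717 and 11033 CPM in control replicates 1, 2 and 3, and 2532, 2565 and 2440 CPM in the Folfiri samples. By step, the summed level after Folfiri was 0.146 of that in controls for sterol transfer and uptake (nearly all Stard4), 0.156 for the mevalonate genes, 0.159 for the sterol enzymes and 0.263 for the SREBP regulators. It was 0.585 for the fatty acid genes and 0.91 for the LXR and export genes. In bulk RNA, fewer cells of a type and less RNA per cell cannot be told apart.

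**Figure D1:**
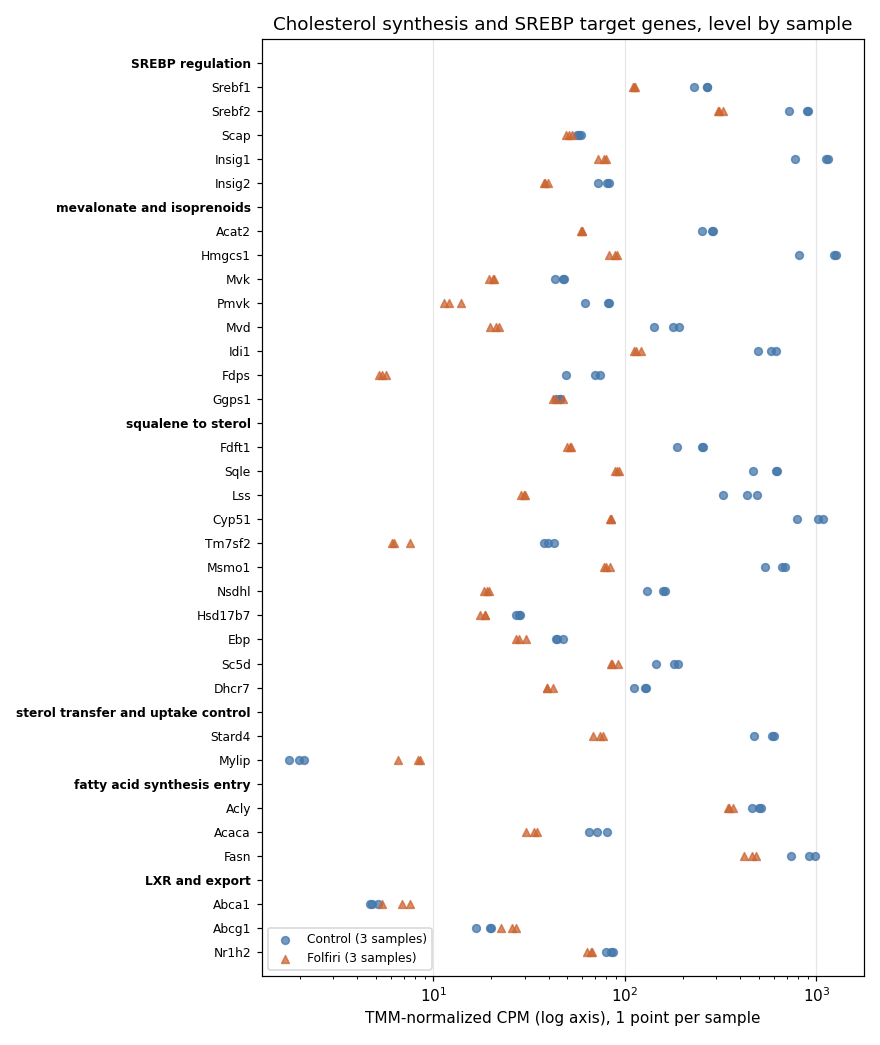
Level of each of the 32 genes in each of the 6 samples, in TMM-normalized CPM on a log axis, grouped by pathway step (circles, 3 control samples; triangles, 3 Folfiri samples). The 3 Folfiri samples lie close together and to the left of the controls for 28 genes, to the right for Mylip, Abca1 and Abcg1, and among them for Ggps1.

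All 5 SREBP regulators were lower, with a median log2 fold change of -1.2. Insig1 (chromosome 5 of GRCm38, 28071363 to 28078662), which retains SCAP in the endoplasmic reticulum, stood at 773, 1128 and 1145 CPM in controls and at 79.3, 77.4 and 72.7 CPM after Folfiri. Every treated sample was far below every control, a 13.3-fold lower level (log2 fold change -3.73, SE 0.15, adjusted p = 1.02e-08, edgeR). Its paralog Insig2 (chromosome 1, 121304353 to 121332589), which also retains SCAP, went from 72.5, 82.9 and 80.9 CPM to 37.6, 38.1 and 39.5 CPM. The groups were separate here as well, but the log2 fold change was -1.04 (SE 0.08, adjusted p = 6.21e-07), with a 95% confidence interval of -1.21 to -0.86 that lay apart from the -4.06 to -3.4 of Insig1.
Srebf2 (chromosome 15, 82147181 to 82205379) was at 718, 893 and 907 CPM in controls and at 309, 324 and 307 CPM after Folfiri, a log2 difference of -1.42 (SE 0.1, adjusted p = 3.83e-07). Srebf1 (chromosome 11, 60199089 to 60222581) was at 228, 267 and 269 CPM in controls and at 109.8, 113 and 111 CPM after Folfiri, a log2 difference of -1.2 (SE 0.08, adjusted p = 2.81e-07). Both precursor transcripts were thus 2.68-fold and 2.29-fold lower, and no treated sample reached a control value. Exons of Srebf1 share 109 bases with Rai1 on the opposite strand, and Rai1 itself was higher, by a log2 fold change of 0.56. Scap, the carrier of both precursors, was at 58.6, 56.5 and 57.3 CPM in controls and at 49.3, 51 and 53.2 CPM after Folfiri, a log2 difference of -0.17 (SE 0.07, adjusted p = 0.048). The Scap values of the groups were separate but near, and the call rested on the scaling and on single libraries. It turned to 0.11 (adjusted p = 0.238) with total counts only, and the adjusted p was 0.0841 without control replicate 2, 0.0914 without control replicate 3, 0.171 without Folfiri replicate 1 and 0.138 without Folfiri replicate 2.

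Of the 8 mevalonate and isoprenoid genes, 7 fell, each by a log2 fold change beyond -1, and the median was -2.44. Hmgcs1 (chromosome 13, 119690379 to 119708260), the cytosolic HMG-CoA synthase, showed the largest change of the step. It was at 809, 1233 and 1267 CPM in controls and at 91.2, 89 and 82.6 CPM after Folfiri, a 12.6-fold lower level (log2 fold change -3.65, SE 0.16, adjusted p = 2e-08). Acat2, the cytosolic thiolase that opens the pathway, was at 251, 289 and 286 CPM in controls and at 59, 59.4 and 60 CPM after Folfiri (log2 fold change -2.21, SE 0.08). Its paralog Acat3 shares 39.1% of the 50-base words of Acat2 transcripts, so reads may have been divided between them. Acat3 had a log2 fold change of -2.84, in the same direction.
The kinases and the decarboxylase that turn mevalonate into isopentenyl diphosphate all fell. Mvk, mevalonate kinase, was at 47.8, 47.5 and 42.9 CPM in controls and at 20.4, 19.6 and 20.6 CPM after Folfiri (log2 fold change -1.19, SE 0.08). Pmvk, the next kinase, was at 61.8, 82.1 and 81.8 CPM in controls and at 12, 11.3 and 13.9 CPM after Folfiri (log2 fold change -2.6, SE 0.13). Mvd, the decarboxylase, was at 142, 192 and 178 CPM in controls and at 19.7, 21.2 and 22 CPM after Folfiri (log2 fold change -3.02, SE 0.12). The fall of Mvk was thus the smallest of the called genes in this step, and its control samples showed no dip in replicate 1.
Idi1, the isomerase of isopentenyl diphosphate, was at 497, 582 and 612 CPM in controls and at 114, 121 and 112 CPM after Folfiri (log2 fold change -2.29, SE 0.09). The processed pseudogene Gm13502, not listed in the counts used here, shares 17.7% of the 50-base words of Idi1 transcripts. Fdps, farnesyl diphosphate synthase, was at 49.1, 69.7 and 74.1 CPM in controls and at 5.4, 5.65 and 5.19 CPM after Folfiri (log2 fold change -3.57, SE 0.16). The counts of Fdps are an uncertain part of its reads. Gm43738, a protein-coding gene on the same strand that is not listed in the count table used here, overlaps 26.7% of the exonic bases of Fdps and shares 23.4% of its 50-base words. The processed pseudogenes Gm3571 and Gm5873, which share 12.1% and 5.53% of these words and were looked at after the values of Fdps were seen, had means of 126 and 42.6 CPM in controls, and log2 fold changes of -2.94 and -3.1. Ggps1 was the only gene of the 32 that did not pass the threshold. It makes geranylgeranyl diphosphate on the branch that leads to protein prenylation, away from sterols. Its levels of 45.6, 43.5 and 45.7 CPM in controls and of 43.6, 47.3 and 42.2 CPM after Folfiri overlapped, with a log2 fold change of -0.02 (95% confidence interval -0.19 to 0.15, adjusted p = 0.832). With total counts only it was 0.26 (adjusted p = 0.0204), a shift shared by all genes under that scaling.

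All 11 enzymes from squalene to cholesterol were lower, with log2 fold changes from -3.82 to -0.61 and a median of -2.59. Fdft1, squalene synthase and the committed step toward sterols, was at 186, 255 and 251 CPM in controls and at 49.9, 52.3 and 51.8 CPM after Folfiri (log2 fold change -2.17, SE 0.12). Of its exonic bases 18.3% overlap Ctsb on the opposite strand, and Ctsb had a log2 fold change of -0.23. Sqle, squalene epoxidase, was at 468, 618 and 622 CPM in controls and at 88.4, 93.4 and 91 CPM after Folfiri (log2 fold change -2.65, SE 0.11). Levels were 4.49-fold and 6.26-fold lower, and in both genes control replicate 1 was the lowest control but still far above every treated sample.
Lss (chromosome 10, 76531588 to 76557138), which closes the ring to lanosterol, had the largest fall of all 32 genes. It was at 325, 435 and 487 CPM in controls and at 29.7, 29.9 and 28.8 CPM after Folfiri, a 14.1-fold lower level (log2 fold change -3.82, SE 0.14, adjusted p = 6.65e-09). Cyp51, lanosterol demethylase, was at 791, 1016 and 1079 CPM in controls and at 84.6, 84.5 and 83.4 CPM after Folfiri, an 11.4-fold lower level (log2 fold change -3.51, SE 0.12, adjusted p = 4.56e-09). For both, the treated samples lay within a narrow range and the controls were led by replicate 3.
Msmo1, the sterol methyl oxidase, was at 539, 664 and 684 CPM in controls and at 79.6, 83.7 and 77.9 CPM after Folfiri (log2 fold change -2.97, SE 0.1). Nsdhl, which acts with it to remove methyl groups, was at 131, 158 and 162 CPM in controls and at 18.3, 19.4 and 19.1 CPM after Folfiri (log2 fold change -2.99, SE 0.1). Tm7sf2, a sterol reductase that shares 12.1% of its exonic bases with Vps51 on the same strand, was at 37.8, 39.5 and 42.4 CPM in controls and at 7.58, 6.1 and 6.19 CPM after Folfiri (log2 fold change -2.59, SE 0.11). Msmo1 and Nsdhl, which work in sequence, had nearly equal changes, while Vps51 had a log2 fold change of -0.03 that did not pass the threshold (adjusted p = 0.768).
The remaining enzymes of the step had smaller log2 fold changes. Dhcr7, the reductase of the last step, was at 111, 129 and 127 CPM in controls and at 39, 39.2 and 41.9 CPM after Folfiri (log2 fold change -1.61, SE 0.08). Hsd17b7 (ketosteroid reductase), Ebp (sterol isomerase) and Sc5d (sterol desaturase) had log2 fold changes of -0.61, -0.66 and -0.97, with adjusted p values of 4e-05, 2.21e-05 and 5.59e-06. In each of these the groups were separate.

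**Figure D2:**
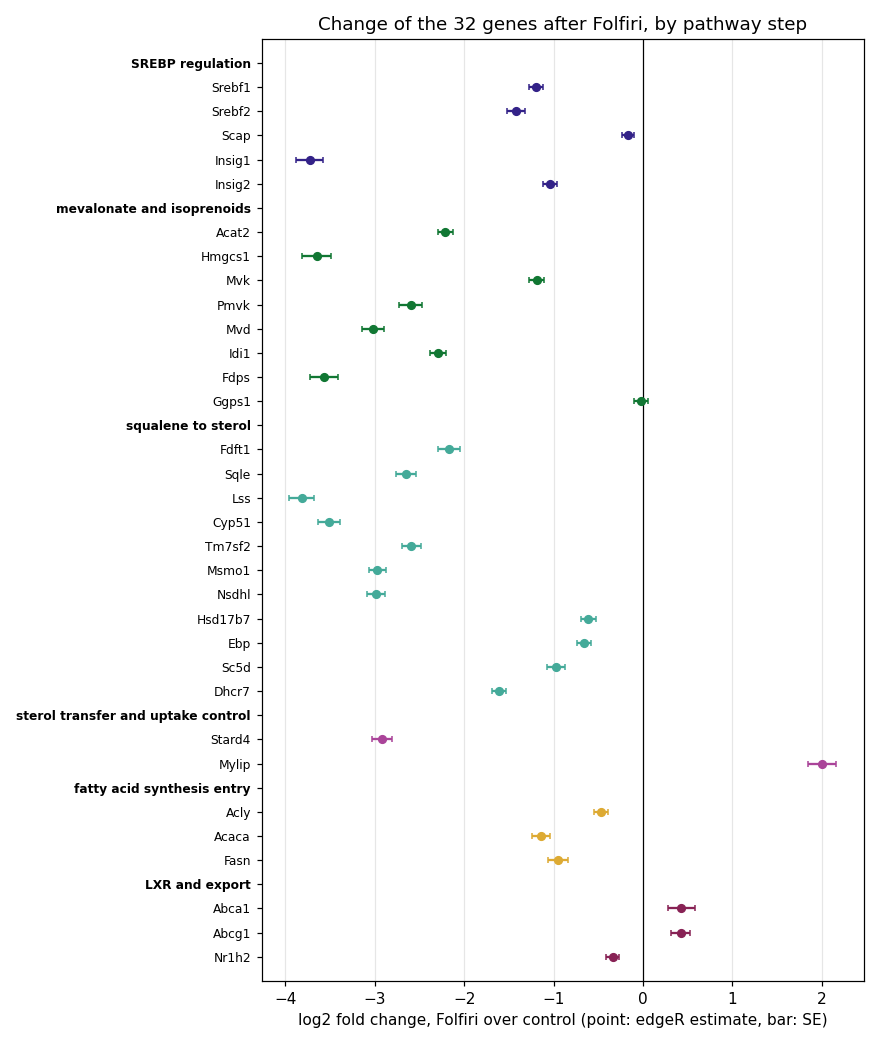
Log2 fold change of Folfiri over control for each of the 32 genes in pathway order (points, edgeR estimates, coloured by step; bars, standard errors), on 3 samples per group. Lss (-3.82), Insig1 (-3.73) and Hmgcs1 (-3.65) lie farthest to the left, Ggps1 (-0.02) at the zero line and Mylip (2) alone far to the right.

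The pair of sterol transfer and uptake genes moved in opposite directions. Stard4, a soluble protein that carries cholesterol between membranes, was at 473, 583 and 603 CPM in controls and at 76.9, 74.4 and 68.4 CPM after Folfiri, a 7.55-fold lower level (log2 fold change -2.92, SE 0.11, adjusted p = 6.22e-09). Mylip (chromosome 13, 45389742 to 45412022) was at 1.98, 1.76 and 2.11 CPM in controls and at 8.28, 8.52 and 6.52 CPM after Folfiri. Every treated sample was above every control, a 3.99-fold higher level (log2 fold change 2, SE 0.16, adjusted p = 1.12e-06), from a low base.
The 3 genes of fatty acid synthesis entry were all lower, with a median log2 fold change of -0.95. Acaca, acetyl-CoA carboxylase, was at 80.8, 64.9 and 71.2 CPM in controls and at 33.5, 34.7 and 30.5 CPM after Folfiri (log2 fold change -1.14, SE 0.1, adjusted p = 1.4e-06). The processed pseudogene Gm5182, not listed in the counts used here, shares 29.2% of the 50-base words of Acaca transcripts. Fasn, fatty acid synthase, was at 733, 910 and 982 CPM in controls and at 484, 458 and 418 CPM after Folfiri (log2 fold change -0.95, SE 0.11, adjusted p = 1.91e-05). Acly, which makes cytosolic acetyl-CoA from citrate, changed by -0.47 on the log2 scale (SE 0.08, adjusted p = 0.000193). In all 3 the groups were separate.
The 3 LXR and export genes had small log2 fold changes, between -0.34 and 0.43. Abca1, which loads cholesterol onto lipid-poor apolipoprotein, was at 5.15, 4.76 and 4.68 CPM in controls and at 7.58, 6.84 and 5.37 CPM after Folfiri (log2 fold change 0.43, SE 0.15, adjusted p = 0.0219). Abcg1, which exports sterols to lipoprotein particles, was at 16.7, 19.8 and 19.9 CPM in controls and at 27.1, 25.8 and 22.5 CPM after Folfiri (log2 fold change 0.42, SE 0.11, adjusted p = 0.00358). The groups did not overlap for either, but Folfiri replicate 3 lay closest to the controls in both. The call of Abca1 was lost without control replicate 2 (adjusted p = 0.062), control replicate 3 (0.059), Folfiri replicate 1 (0.103) or Folfiri replicate 2 (0.0675). Nr1h2, which encodes LXR beta, was lower, at -0.34 on the log2 scale (SE 0.07, adjusted p = 0.000919), and of -0.07 (adjusted p = 0.378) with total counts only.

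Per exonic length, the order of the genes changed. In controls the highest levels were those of Insig1, at 328 CPM per exonic kilobase, Hmgcs1 at 240.1, Cyp51 at 218 and Idi1 at 161, and 8 of the 32 genes were above 100. After Folfiri 0 were above 100, and Acly, at 67.2 CPM per exonic kilobase, Srebf2 at 43.6 and Fasn at 41.4 had the highest levels, with Insig1 at 24.7. In controls, Hmgcs1 (240.1 ± 55.6, SD, n = 3) and Cyp51 (218 ± 34.3, SD, n = 3) were measured in the same samples, and their difference was not tested. Abca1 was the lowest of the 32 in both groups, at 0.469 and 0.637 CPM per exonic kilobase. Exonic lengths are those of GENCODE vM21 and count every annotated exon (10.8 kilobases for Lss), so these levels depend on the annotation as well.

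**Figure D3:**
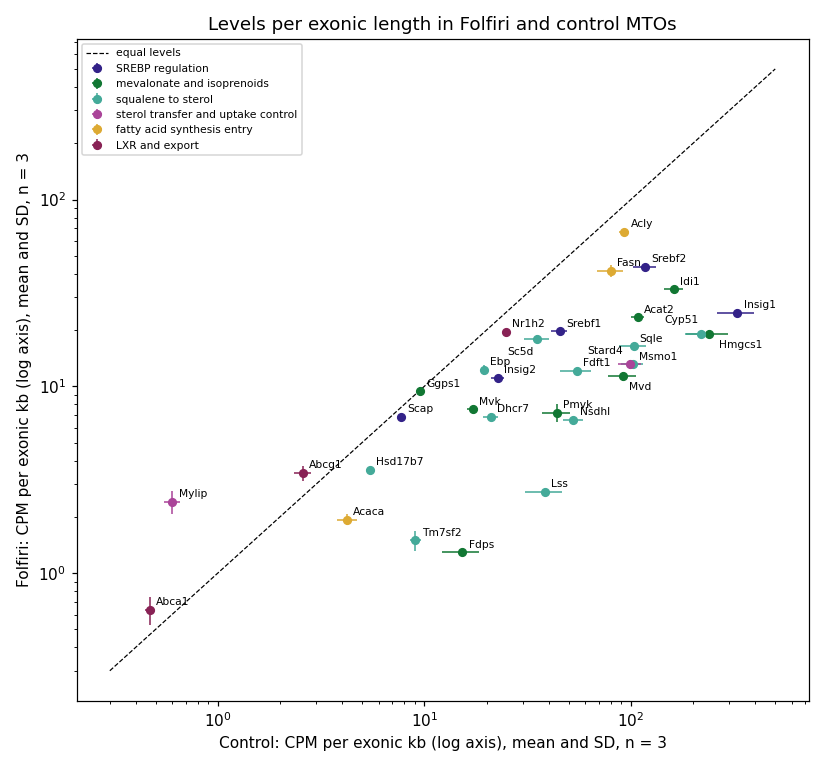
Mean level of each gene in Folfiri against control MTOs, in CPM per exonic kilobase on log axes, with SD bars (n = 3 per group) and a dashed line of equal levels. Mylip, Abcg1 and Abca1 lie above the line, Ggps1 and Scap close to it, and Lss, Fdps, Hmgcs1 and Insig1 farthest below it.

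The controls themselves differed in these genes. Control replicate 1 was the lowest control for 25 of the 32 genes (78.1%), and for 16 of the 19 mevalonate and sterol enzymes, where it was the lowest for 41% of all genes tested. Its level relative to the mean of the other controls was 0.647 for Hmgcs1, 0.68 for Insig1 and 0.704 for Lss, and 1.02 for Ggps1 and Mylip. The median of this ratio was 0.837 over the 32 genes and 1.01 over all genes tested. Without this sample the median over the list was -1.6, and 31 genes were called, as many as with it. The part of this difference between controls in the results was not tested.

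Other genes of the pathway, chosen by function, give the surroundings of these changes. Of 39 such genes 38 were tested, and 16 were higher and 16 lower, with a median log2 fold change of -0.07. In each direction that is near the share of all genes tested (40.3% higher and 38.8% lower), and with total counts only 27 were called in place of 32. Unlike the regulators named so far, the SREBP proteases and sterol-sensing ligase components were mostly higher, 7 of 8 with 0 lower. Mbtps2, the protease of the second SREBP cleavage, rose by 1.27 on the log2 scale (SE 0.11, adjusted p = 2.23e-06) and Erlin2, an endoplasmic reticulum scaffold, by 0.95 (SE 0.12, adjusted p = 3.64e-05). Mbtps1, the protease of the first cleavage and the member of this list without a call, was named after its values were seen, with a log2 fold change of -0.08 (95% confidence interval -0.26 to 0.09).
Genes that use isoprenoids were 5 higher, 2 lower and 4 not past the threshold of 11, so 63.6% were called, against 79.1% of all genes. Of those not called, Pdss2 passed as lower without control replicate 2 (adjusted p = 0.0337), control replicate 3 (0.0484) or Folfiri replicate 2 (0.0379), and Rabggta without control replicate 1 (0.045). The largest rises were those of Pdss1, which makes the side chain of ubiquinone, at a log2 fold change of 1.97, Rabggtb, a subunit of Rab geranylgeranyl transferase, at 1.83, and Pggt1b, of geranylgeranyl transferase, at 0.9. The subunits of farnesyl transferase, Fntb and Fnta, were lower, at -0.59 and -0.24. Fnta turned to 0.03 with total counts only, and its call was lost without Folfiri replicate 2 (adjusted p = 0.0692).
Acetyl-CoA and fatty acid supply genes were 4 lower of 5 tested, with 0 higher. Acss2, cytosolic acetyl-CoA synthetase, was at 86.6, 108 and 111 CPM in controls and at 4.69, 4.13 and 4.46 CPM after Folfiri, a 22.9-fold lower level (log2 fold change -4.52, SE 0.12, adjusted p = 1.61e-09) and a larger estimate than for any of the 32 genes, a difference that was not tested. Slc25a1, the mitochondrial citrate carrier, had a log2 fold change of -2.25 (SE 0.11), and Me1, malic enzyme, of -1.51 (SE 0.1).
Of the 10 genes of sterol esters, sterol transfer and lipoprotein receptors, 8 were lower and 2 higher. With total counts only, Soat1 (-0.14, adjusted p = 0.187), Osbp (-0.12, adjusted p = 0.189) and Scarb1 (0.05, adjusted p = 0.501) were not among the lower genes. Scarb1 also lost its call without control replicate 2 (adjusted p = 0.0643), Folfiri replicate 1 (0.0619) or Folfiri replicate 2 (0.0533). Vldlr, a lipoprotein receptor, was at 258, 254 and 256 CPM in controls and at 69.5, 65.5 and 57.6 CPM after Folfiri (log2 fold change -2, SE 0.08, adjusted p = 1.14e-08). Lrp8, a related receptor, had a log2 fold change of -1.62 and Soat2, a sterol acyltransferase near 1 CPM, of -2.33. Nceh1, a cholesterol ester hydrolase, and Stard3, a sterol carrier of late endosomes, were higher, at 0.7 and 0.55. The last list holds genes that encode RXR and genes that are LXR targets, with 4 tested. Of the RXR genes, Rxra was higher, at 0.85, and Rxrb lower, at -0.22. Of the LXR targets, Arl4c was higher, at 0.74, and Lpcat3 lower, at -0.33. Lpcat3 was not called with total counts only (-0.06, adjusted p = 0.637). Rxrb turned to 0.06 with total counts only, and its call was lost without Folfiri replicate 1 (adjusted p = 0.0726) or Folfiri replicate 2 (0.114).

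**Figure D4:**
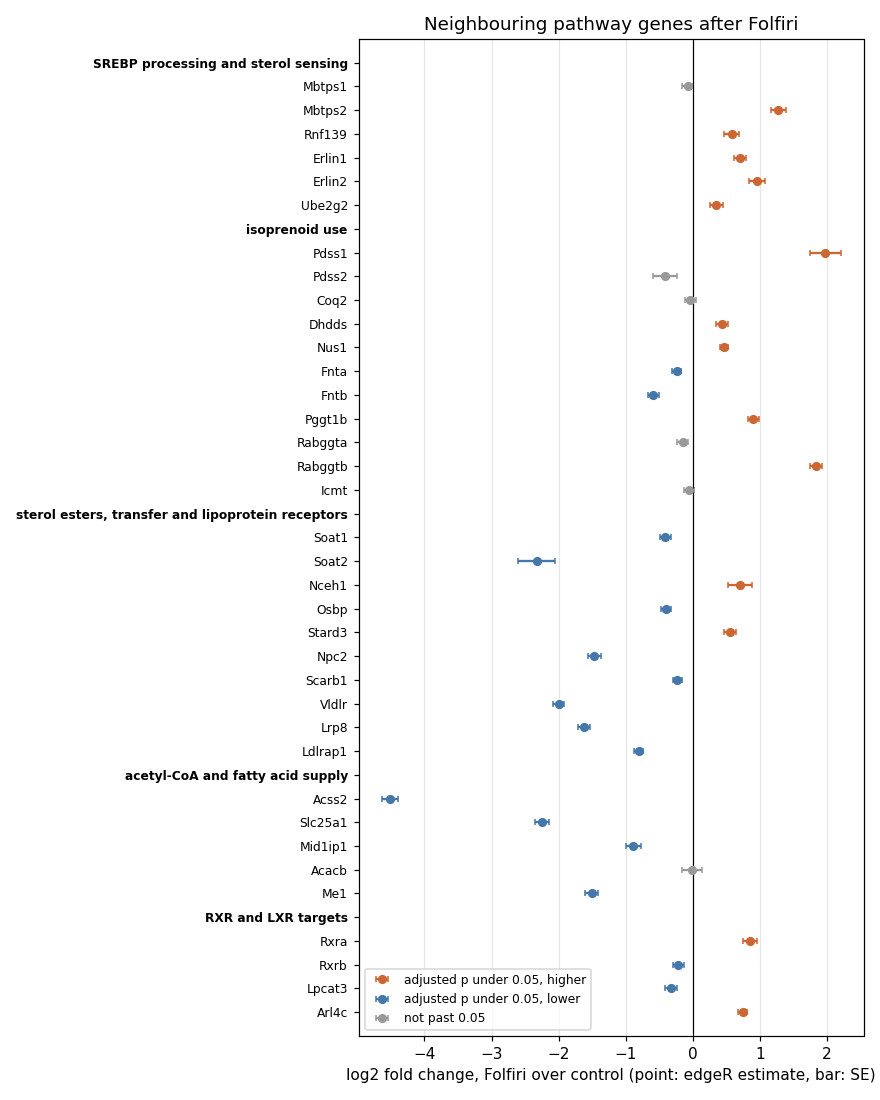
Log2 fold change of Folfiri over control for the neighbouring genes, 2 tested genes left out, by list (points, edgeR estimates; bars, standard errors; colours, call at an adjusted p of 0.05), on 3 samples per group. Acss2 (-4.52), Soat2 (-2.33) and Slc25a1 (-2.25) lie farthest to the left, and Pdss1 (1.97) and Rabggtb (1.83) far to the right.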

How the data were processed

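RNA of 3 control and 3 Folfiri MTO samples was analysed. The authors aligned the reads with STAR 2.5.2 to the mouse genome (GRCm38, GENCODE vM25), used Rsubread to count reads in genes, and the raw counts were deposited without normalization. The strand setting and the handling of reads with several positions are not given in the sources used here. Symbols, positions and exonic lengths came from GENCODE vM21 on the same build, which held 24124 of the 24190 identifiers. Promoters were those of RefSeq.

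From the counts, edgeR 4.0.16 in R 4.3.3 was run with its default expression filter, TMM normalization, the quasi-likelihood test and Benjamini-Hochberg adjustment over all genes tested (threshold 0.05), without covariates. The standard errors of log2 fold changes were derived from the F statistics. Overlaps of exons and shared 50-base words (at least 5% of those of a gene) were found in the annotation. The script was tested on simulated data. Samples were grouped by their titles. Values in every sample are given for the regulators and, per step, for called genes changed by a log2 of at least 1 or the 2 largest, and up to 3 neighbouring genes are named per direction and list. Genes that share exons or sequence with a member, and neighbouring genes whose call changed under an alternative, were named after their values were seen. The members and lists were chosen with earlier results of these data known. Alternatives were other scalings and filters, DESeq2 1.42.0, a replicate block and leaving out each replicate. Some items of the genotype and 2 neighbouring genes are not reported here.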

Additional observations from a re-analysis of the deposited data

How the results depend on the processing

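The median over the 32 genes was below 0 under every alternative run, between -1.6 and -1.48 on the log2 scale without 1 replicate and -1.23 with total counts only. Between 29 and 31 of the 32 genes were called, with from 26 to 28 lower and from 2 to 4 higher. Among all genes from 10383 (mean of at least 1 CPM) to 12742 (no filter) were called, and from 11021 to 12312 without 1 replicate. With total counts only, negative values turned to 0.11 for Scap, 0.26 for Ggps1, 0.19 for Mbtps1, 0.23 for Coq2, 0.03 for Fnta, 0.12 for Rabggta, 0.22 for Icmt, 0.05 for Scarb1, 0.26 for Acacb, 0.06 for Rxrb, 0.05 for Ctsb and 0.25 for Vps51, of which Ggps1, Icmt and Vps51 were past the threshold there. With upper quartile scaling Ggps1 was at 0.04, Coq2 at 0.02, Acacb at 0.05 and Vps51 at 0.03, and with a mean of at least 1 CPM Acacb was at 0.01. Without 1 replicate the values ranged from -0.06 to 0.02 for Ggps1, from -0.14 to 0 for Mbtps1, from -0.08 to 0.03 for Coq2, from -0.1 to 0.08 for Acacb and from -0.05 to 0.03 for Vps51, and none of these genes was called in the reported test. Under the scaling by totals, all genes together moved up in median as well, from 0.02 to 0.3. Of the values of single members under alternatives, 398 kept their direction and their side of the threshold. Another 14 kept their direction but lost the call, all of Scap, Abca1 or Nr1h2. The direction turned in 4, all of Scap or Ggps1, and of these Scap with total counts only lost its call as well. Besides the left-out replicates given above, Scap was not called with upper quartile scaling (adjusted p = 0.167), no filter (0.068), a mean of at least 1 CPM (0.0663) or the DESeq2 Wald test (0.0501).

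With the replicate number as a block, 30 of the 32 genes and 11499 of all genes were called, the median over the 32 was -1.51, and Scap lost its call (adjusted p = 0.105). Samples of the same number did not deviate together (correlations of 0.0267, -0.117 and 0.0393), and pairs of different numbers ranged from -0.118 to 0.12. With 3 samples per group, these values cannot tell whether samples of the same number shared a culture or a batch. Among the pathway genes named with a call, counts were lowest for Soat2, from 7 to 37 per sample, and the precision of its value is limited by them.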
